A study of Bos taurus with 30 samples.

Results

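The miR-30 family was examined in small RNA-seq of anterior pituitary tissue, which makes the trophic hormones of the gland, from 30 Holstein-Friesian bull calves. Its 6 members were chosen by name as the rows bta-miR-30a-5p, bta-miR-30b-5p, bta-miR-30c, bta-miR-30d, bta-miR-30e-5p and bta-miR-30f of the 1030 mature miRNAs listed, and all 6 were among the 419 miRNAs that passed the filter on low read numbers. The 15 calves on a high plane of nutrition (HI) received 1.5 kg of milk replacer in 10 litres per day with concentrate ad libitum, and the 15 calves on a moderate plane (MOD) received 0.5 kg in 4 litres with 0.5 kg of concentrate. Both diets ran from 2 to 12 weeks of age, every calf gave 1 library at 12 weeks, and all calves were of a single breed and sex and had access to hay and water. Groups were taken from the labels.

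Members of the miR-30 family are defined by a common seed, the short stretch near the 5′ end through which a miRNA recognises its target mRNAs, so their predicted targets overlap widely. They are abundant in many differentiated tissues, and are best known for holding back programmes of dedifferentiation and for roles in autophagy and metabolism. In mammals the mature forms of miR-30a, miR-30d and miR-30e are nearly identical along their whole length, whereas miR-30b and miR-30c carry a different 3′ part. The genes lie in pairs that are transcribed close together. In RefSeq's gene table for ARS-UCD2.0, used here for names and neighbours only, all 6 members matched a gene. MIR30C and MIR30E were adjacent within NFYC, which encodes a subunit of the transcription factor NF-Y, MIR30D and MIR30B were adjacent to each other, and MIR30F lay next to the locus that contains MIR30A.

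Values are TMM-normalized counts per 1e+06 reads on miRNAs (CPM), where TMM is a scaling that corrects library totals for differences in composition. Libraries held 6650492 to 11086524 reads on miRNAs in HI and 7685030 to 9916490 in MOD calves, and the upper limit for a miRNA with no reads, which is 3 reads and covers counting error only, corresponded to 0.266 to 0.419 CPM. The tissue label was borne out by the endocrine marker miR-375, which ranged from 103334 to 197219 CPM, and by the liver marker miR-122, which reached at most 0.209 CPM. The libraries of 3 HI calves stood apart: HI calf 1 had the highest sum of the stromal markers (183329 CPM) and of the striated muscle markers (85.8 CPM), and HI calves 15 and 8 had the highest TMM factors (1.21 and 1.15). In limma 0 of the 28 tested miRNAs of the 9 cell type marker lists passed FDR < 0.1 between diets, against 15 of all 419 (3.58%). edgeR's quasi-likelihood test and DESeq2 on the recovered reads each called 2 of the 28. These were the red blood cell markers miR-144 and miR-451, both higher in HI calves. The counts of these tests over all miRNAs are not given here.

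The family as a whole accounted for 2.87% ± 0.276 (SD, n = 30) of the miRNA reads of a library. Its summed level was 28715 ± 2681 CPM (SD, n = 30), from 24397 CPM in HI calf 2 to 34848 CPM in HI calf 7, a span of 1.43-fold. bta-miR-30a-5p, the most abundant member, ranked 21st among all miRNAs by mean CPM and held 43.2% ± 2.38 (SD, n = 30) of the family. bta-miR-30d, at rank 27, held 23.3% ± 2.07, and bta-miR-30e-5p, at rank 30, held 21.2% ± 0.931. The other members were much scarcer, with bta-miR-30b-5p at 6.50% ± 0.706, bta-miR-30c at 5.10% ± 0.482 and bta-miR-30f at 0.640% ± 0.0690 of the family. bta-miR-30f was the scarcest, but at 151 to 245 CPM it still stood far above the level of a few reads. All levels are per read of a mature miRNA of similar length, so they can be set side by side, although ligation and amplification of small RNA libraries differ between sequences.

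**Figure D1:**
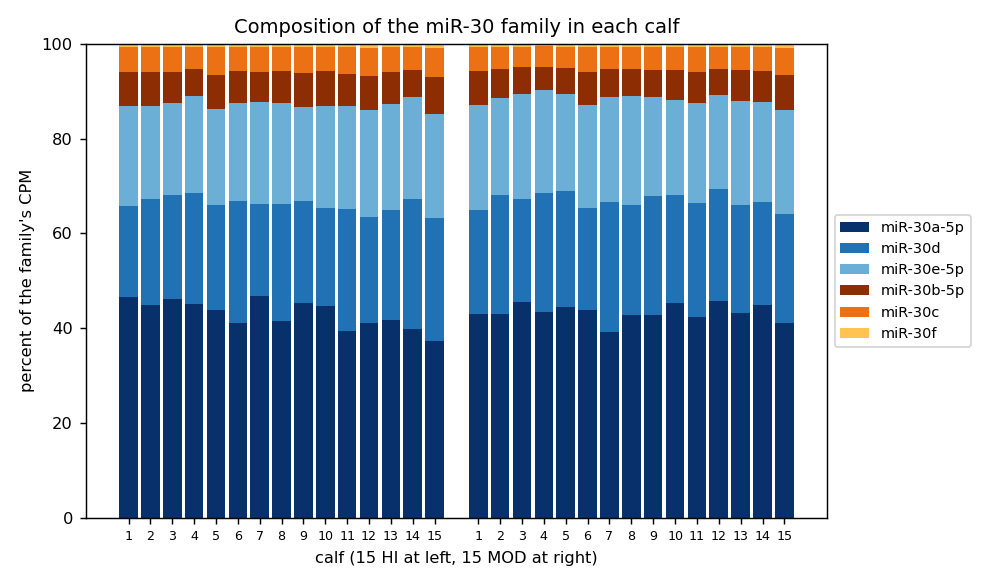
Share of each member in the summed CPM of the miR-30 family (vertical axis, percent), with 1 bar per calf, the 15 HI calves at left and the 15 MOD calves at right. The blue segments (miR-30a-5p, miR-30d and miR-30e-5p) together fill between 85.3% and 90.3% of every bar, and miR-30f forms the thin cap.

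The order of the members was nearly fixed from calf to calf. bta-miR-30a-5p exceeded bta-miR-30d in 30 of 30 calves, by 1.42- to 2.43-fold. bta-miR-30d and bta-miR-30e-5p were the only neighbours in rank whose order changed between calves. bta-miR-30d was the higher in 23 of 30 calves, with a mean ratio of 1.09 and a range of 0.897 to 1.28. bta-miR-30e-5p exceeded bta-miR-30b-5p in 30 of 30 calves by 2.72- to 4.40-fold, bta-miR-30b-5p exceeded bta-miR-30c in 30 of 30 by 1.11- to 1.46-fold although their ranges across calves overlapped, and bta-miR-30c exceeded bta-miR-30f in 30 of 30 by 7.08- to 9.78-fold. Members also varied little between calves of the same diet. Their residual SD was 0.145 to 0.171 on the log2 scale, against a median of 0.251 over all 419 miRNAs. Between 81.6% and 90.5% of the tested miRNAs varied more than a given member. This comparison was not matched for abundance, and counting error weighs more on scarce miRNAs. The scarce opposite arm bta-miR-30b-3p had an SD of 0.249.

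Whether the plane of nutrition altered the level of the members was addressed with limma on log2(CPM + 1) over all 419 miRNAs, with Benjamini-Hochberg adjustment (FDR). None of the 6 members passed FDR < 0.1 and a fold change above 1.5, and none passed FDR < 0.1 alone. Over all miRNAs 2 of 419 passed both thresholds (0.477%) and 15 of 419 passed FDR < 0.1 (3.58%). edgeR's quasi-likelihood test and DESeq2 on the recovered reads likewise called 0 of 6 members, without a count over all miRNAs to set beside it. In simulated data for these libraries, 200 of the 419 miRNAs were changed. There limma at FDR < 0.1 recovered 190 of 200 changed by a fold of 1.5 and 100 of 200 changed by a fold of 1.2. It also called 21 and 5 unchanged miRNAs, respectively. So many changed miRNAs make this threshold easier to pass than in the calves' data, where 15 of 419 passed it. The members also varied less than most miRNAs, so these counts do not give the chance of calling a member. How often a difference of a member under a fold of 1.2 would be missed was not tested, and small differences can be missed. In RNA of anterior pituitary tissue, fewer cells of a type and less of a miRNA per cell cannot be told apart.

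The 3 abundant members had lower means in HI calves, within overlapping ranges. bta-miR-30a-5p ran from 9815 CPM (HI calf 15) through a median of 11549 to 16339 CPM (HI calf 7) in HI calves, and from 10951 through 13110 to 14701 CPM in MOD calves. Of the 15 HI calves 13 lay below the MOD median and 3 below the lowest MOD calf, while HI calf 7 lay above every MOD calf. The fold change was 0.915, or -0.13 ± 0.06 on the log2 scale (SE), with FDR = 0.329 in limma.

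bta-miR-30d gave the largest difference in the family. Its level was 5182 to 7278 CPM in HI calves, with a median of 6503, and 5928 to 8610 CPM in MOD calves, with a median of 7082. The diets overlapped, but 13 of 15 HI calves lay below the MOD median, 5 lay below the lowest MOD calf and 0 exceeded the highest. The fold change was 0.901 (log2 -0.15 ± 0.06 SE, limma FDR = 0.227), with HI calf 1 the lowest of all calves and MOD calf 7 the highest.

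bta-miR-30e-5p behaved similarly in size. It ranged from 4770 to 7493 CPM in HI calves (median 5760) and from 5436 to 7278 CPM in MOD calves (median 6296), and 13 of 15 HI calves lay below the MOD median. The fold change was 0.909 (log2 -0.14 ± 0.05 SE, limma FDR = 0.221). These 3 members had unadjusted limma p-values of 0.0354, 0.0168 and 0.0148, and 22 of 419 miRNAs (5.25%) were lower in HI calves at an unadjusted p < 0.05.

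The 3 scarcer members differed less between diets. bta-miR-30b-5p ran from 1466 to 2253 CPM in HI calves (median 1912) and from 1577 to 2128 CPM in MOD calves (median 1822), with a log2 fold change of 0.04 ± 0.05 (SE) and FDR = 0.873 in limma. bta-miR-30c ran from 1192 to 1869 CPM in HI calves (median 1415) and from 1290 to 1678 CPM in MOD calves (median 1427), with a log2 fold change of 0.01 ± 0.05 (SE) and FDR = 0.953. In both cases the spread of HI calves reached past the MOD range at both ends, with 2 HI calves below the lowest MOD calf and 2 above the highest. bta-miR-30f ran from 151 to 245 CPM in HI calves (median 178) and from 159 to 207 CPM in MOD calves (median 179), with a log2 fold change of 0.03 ± 0.06 (SE) and FDR = 0.934. HI calf 12 was the highest and HI calf 14 the lowest calf for bta-miR-30b-5p and bta-miR-30c alike. The 95% intervals of the fold changes were -0.07 to 0.15 for bta-miR-30b-5p, -0.10 to 0.12 for bta-miR-30c and -0.10 to 0.16 for bta-miR-30f on the log2 scale, so changes within these bounds were not excluded.

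**Figure D2:**
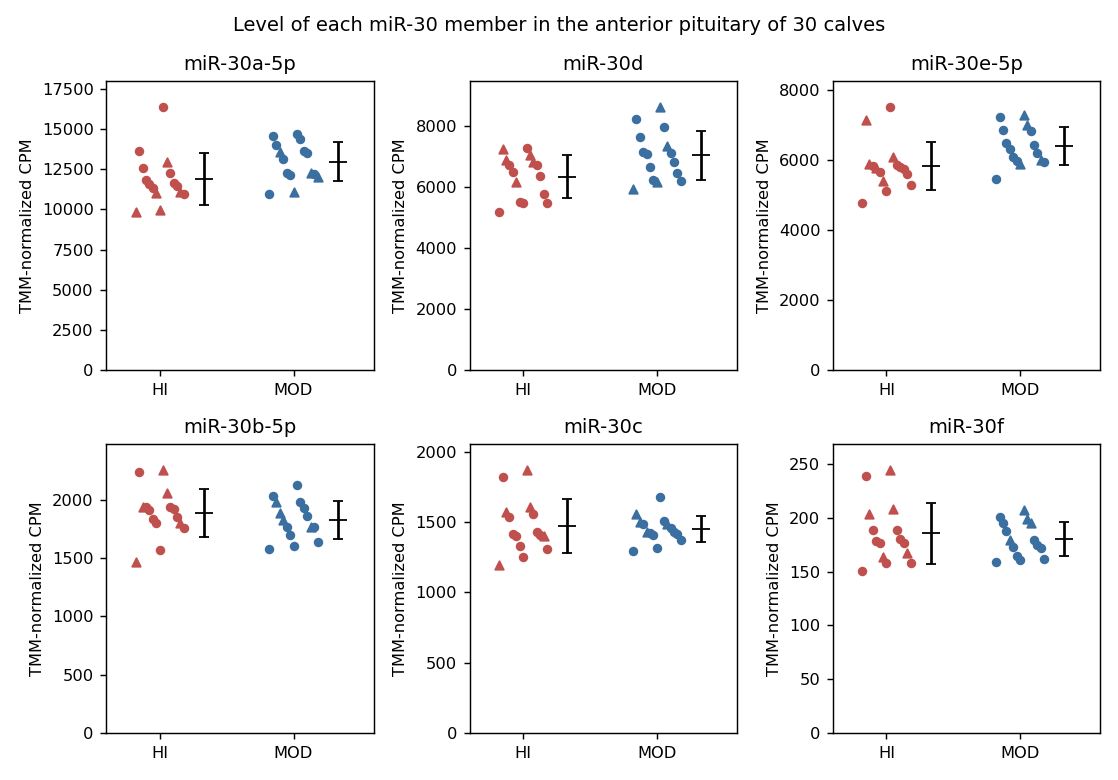
TMM-normalized CPM of each member (vertical axes, each starting at 0) in the 15 HI and 15 MOD calves, with 1 point per calf, triangles for the 9 calves whose label numbers were highest, and the mean with SD at the right of each group. The 2 diets overlap in every panel, and HI calf 7 is the isolated high point of miR-30a-5p at 16339 CPM.

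The summed CPM of the family was 27593 ± 2675 in HI (SD, n = 15) and 29838 ± 2243 in MOD calves (SD, n = 15), a difference of -2245 CPM that was about as large as the SDs. It was -901 CPM with total counts and -4279 CPM with upper quartile scaling. No test was made of this sum. As a share of all miRNA reads, which does not use the TMM factors, the family held 2.83% ± 0.341 in HI and 2.92% ± 0.193 in MOD calves.

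The direction of the scarcer members depended on how libraries were scaled to each other. The median log2 difference over the 419 tested miRNAs was 0.02 under the deposited TMM values, 0.07 with total counts, -0.07 with upper quartile and 0.01 with DESeq2 size factors. bta-miR-30a-5p, bta-miR-30d and bta-miR-30e-5p were lower in HI calves under all 4 scalings. Of these scalings, only upper quartile also brought them past FDR < 0.1 in limma (FDR = 0.0819, 0.0436 and 0.0332), where 29 of 419 miRNAs did (6.92%). bta-miR-30b-5p, bta-miR-30c and bta-miR-30f were slightly higher in HI calves under 3 scalings and lower under upper quartile. Relative to the median of all miRNAs the 3 abundant members lay at -0.14 to -0.18 and the 3 scarcer ones at -0.01 to 0.03 on the log2 scale. A scaling shifts all miRNAs of a library alike, so the likeness of these values between scalings follows from arithmetic and is no further test. Leaving out HI calf 7, the calf with the highest bta-miR-30a-5p and bta-miR-30e-5p, also brought those members past the threshold (limma FDR = 0.0724 and 0.0574), and no other calf did so.

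**Figure D3:**
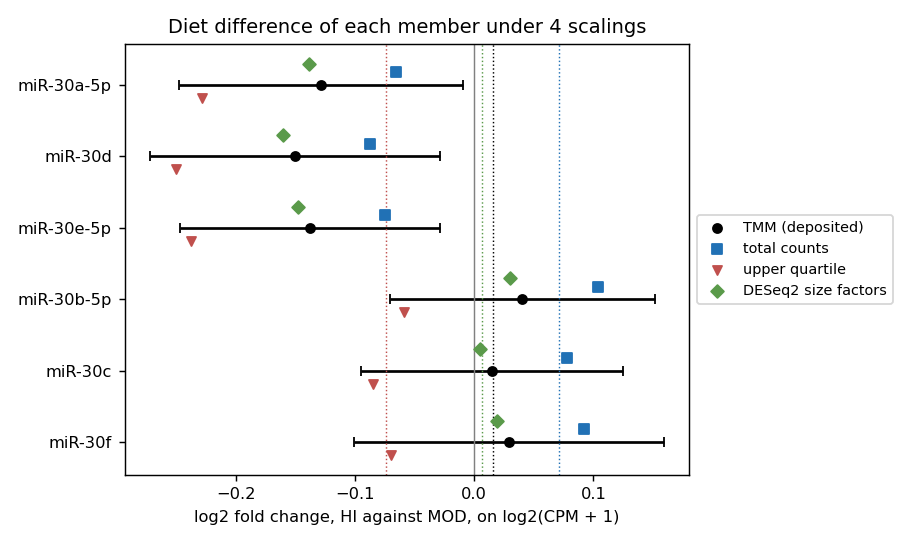
Log2 fold change of each member in HI against MOD calves on the log2(CPM + 1) scale (horizontal axis), with the 95% interval of the TMM fit as a bar, symbols for 4 scalings, and dotted lines at the median of all 419 miRNAs under each scaling. Symbols of a member shift together with the dotted lines, because a scaling shifts all miRNAs of a library alike. Only miR-30a-5p, miR-30d and miR-30e-5p lie left of 0 under every scaling.

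Ratios between members of the same library do not depend on the scaling, and all 15 pairs were compared between diets with a two-sided permutation test. The 9 ratios of bta-miR-30a-5p, bta-miR-30d or bta-miR-30e-5p to bta-miR-30b-5p, bta-miR-30c or bta-miR-30f differed by -12.4% to -9.46% in HI against MOD calves, with unadjusted permutation p from 0.0019 to 0.0265. The 6 ratios within these sets of 3 differed by -0.01 to 0.03 on the log2 scale (permutation p from 0.425 to 0.845). The division into sets of 3 was made after the values were seen, and the 15 ratios are built from only 6 values per calf. When the ratio of every pair of tested miRNAs was fitted in limma, 0 of the 15 member pairs passed FDR < 0.1, with a lowest FDR of 0.239, whereas 1436 of 87571 pairs did (1.64%). By unadjusted limma p < 0.05, 8 of the 15 member pairs and 10125 of all 87571 pairs (11.6%) differed. The ratios therefore did not pass the threshold over all pairs.

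The ratio with the lowest p was that of bta-miR-30e-5p to bta-miR-30f. It ran from 27.5 to 35.6 in HI calves (median 31.5) and from 28.3 to 41.7 in MOD calves (median 34.6), and 13 of 15 HI calves lay below the MOD median. On the log2 scale the difference was -0.17 ± 0.05 (SE, permutation p = 0.0019). bta-miR-30a-5p to bta-miR-30f, a ratio of members from neighbouring loci, ran from 46.9 to 76.9 in HI calves (median 65.6) and from 53.1 to 83.3 in MOD calves (median 74.0), and 14 of 15 HI calves lay below the MOD median (log2 difference -0.16 ± 0.07 SE, permutation p = 0.0217). The ratio of bta-miR-30d to bta-miR-30b-5p, likewise from neighbouring loci, was 3.37 in HI and 3.84 in MOD calves by geometric mean (log2 difference -0.19 ± 0.08 SE, permutation p = 0.0265). For the third pair of neighbours, the ratio of bta-miR-30e-5p to bta-miR-30c was 3.96 in HI and 4.40 in MOD calves (log2 difference -0.15 ± 0.05 SE, permutation p = 0.00286). Ranges of the 2 diets overlapped for all of these ratios.

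**Figure D4:**
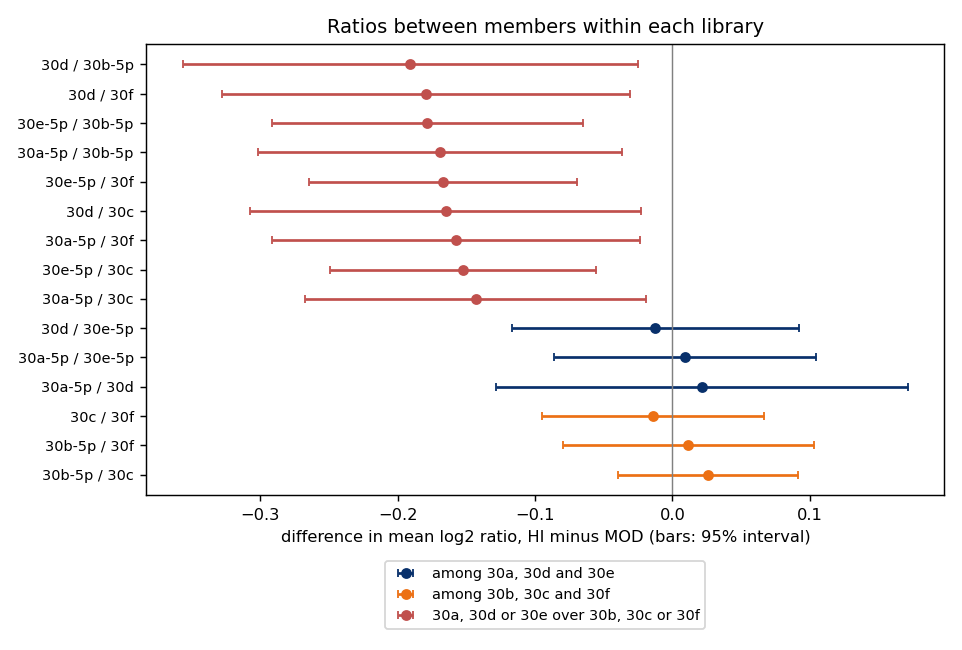
Difference between HI and MOD calves in the mean log2 ratio of each pair of members (horizontal axis, HI minus MOD), with 95% intervals that are not adjusted for the number of pairs. The 9 ratios across the sets (red) lie between -0.19 and -0.14, and the 6 within a set (blue and orange) lie around 0.

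The 9 libraries whose calves had the highest numbers in their labels, 5 of them HI and 4 MOD, stood apart from the other 21 in an earlier analysis of these data, which found the division from the values. What the numbers stand for is not given in the sources used here. With diet in the model, 1 of 6 members differed between these sets, against 109 of 419 miRNAs (26.0%). bta-miR-30a-5p was 11518 ± 1265 CPM (SD, n = 9) in the calves with high label numbers and 12804 ± 1440 CPM (SD, n = 21) in the others (log2 difference -0.14 ± 0.06 SE, limma FDR = 0.0884). bta-miR-30f differed in the opposite direction without passing the threshold (log2 difference 0.14 ± 0.07 SE, limma FDR = 0.124). The interaction test in limma asked whether a diet difference changed between the sets. It called 0 of 6 members and 0 of 419 miRNAs (0%) at FDR < 0.1. Of the 419 miRNAs 21 had an unadjusted p < 0.05, and edgeR likewise called 0 of 6 members. The members' interactions had an SE of 0.12 to 0.13 on the log2 scale. This is close to their largest diet difference (-0.15 for bta-miR-30d), so a change of that size can be missed.

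Within the 21 calves with lower label numbers (10 HI and 11 MOD), the diet difference was -0.10 for bta-miR-30a-5p, -0.21 for bta-miR-30d and -0.16 for bta-miR-30e-5p on the log2 scale (permutation p = 0.144, 0.00572 and 0.0228). Within the 9 calves with high label numbers it was -0.16, -0.02 and -0.11 (exact permutation p = 0.143, 0.778 and 0.302, where 5 against 4 calves cannot go below 0.0159). All 9 ratios between the sets of members were lower in HI calves in both groups of calves, with log2 differences of -0.26 to -0.11 among lower and -0.18 to -0.03 among high label numbers. The unadjusted permutation p of these ratios ran from 0.00048 to 0.0647 among lower label numbers, and the lowest exact p among high ones was 0.127. No share over all pairs of tested miRNAs was computed within either group. Both the groups of calves and the sets of members were found from the values. Apart from their leading digit, the label numbers fall into 4 ranges, each with calves of lower and of high label numbers. With these ranges as blocks over all calves, the log2 fold changes were -0.085 for bta-miR-30a-5p, -0.112 for bta-miR-30d and -0.109 for bta-miR-30e-5p. In this model 3 of the 15 ratios had an unadjusted limma p < 0.05, as did 7962 of all 87571 pairs of tested miRNAs.

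The 3 red blood cell markers, miRNAs abundant in red blood cells, did not move in the same direction between diets. miR-451 and miR-144 had log2 fold changes of 0.55 and 0.46 in limma (FDR = 0.190 and 0.115), 0.66 and 0.68 in edgeR (FDR = 0.0910 and 0.0511) and 0.64 and 0.65 in DESeq2 (FDR = 0.0604 and 0.0270). miR-486 was at -0.27 in limma (FDR = 0.274), -0.23 in edgeR (FDR = 0.355) and -0.25 in DESeq2 (FDR = 0.295). The summed level of the 3, nearly all of it miR-486, therefore follows miR-486, at 10578 to 24489 CPM in HI calves (median 17406) and 15557 to 27422 CPM in MOD calves (median 20588). With miR-486 as a covariate, bta-miR-30d had a larger difference, -0.19 (limma FDR = 0.135) in place of -0.15, while bta-miR-30a-5p was at -0.09, bta-miR-30e-5p at -0.13 and bta-miR-30c at -0.00247. The ratios of bta-miR-30d to bta-miR-30b-5p, bta-miR-30c and bta-miR-30f likewise grew, to -0.23, -0.19 and -0.20 on the log2 scale (unadjusted limma p = 0.0197, 0.0387 and 0.0349), and those of bta-miR-30a-5p shrank to -0.13, -0.08 and -0.09 (p = 0.114, 0.268 and 0.237). Those of bta-miR-30e-5p were -0.17, -0.13 and -0.14 (p = 0.0266, 0.0697 and 0.0513), so that 4 of the 15 ratios had an unadjusted p < 0.05 in this model, in place of 8. The count over all 87571 pairs of tested miRNAs fell as well, to 8252 in place of 10125. The part of miR-451 and miR-144 in the members' values was not tested.

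Across calves, bta-miR-30b-5p, bta-miR-30c and bta-miR-30f varied together. Their 3 pairwise correlations over 30 calves were 0.717 to 0.817 (Pearson r) and 0.710 to 0.753 (Spearman rho), and the permutation p of each r was 1e-05, the smallest the resamples can give. Without the 2 calves farthest from the median the r were 0.609 to 0.735. They were 0.684 to 0.729 among calves with lower label numbers, 0.846 to 0.954 among those with high ones, 0.819 to 0.904 in HI and 0.515 to 0.664 in MOD calves. No more than 0.375% of the 87571 pairs of tested miRNAs had an r as high as any of these, and the median r of all pairs was -0.000874.

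Among the abundant members, bta-miR-30e-5p was more correlated with both others than these were with each other. Its r was 0.712 with bta-miR-30a-5p (permutation p = 2e-05) and 0.671 with bta-miR-30d (permutation p = 0.0001). The rho were 0.717 (permutation p = 3e-05) and 0.655 (permutation p = 0.00011). Without the 2 calves farthest from the median the r were 0.684 and 0.658. bta-miR-30a-5p and bta-miR-30d had an r of 0.359 (permutation p = 0.0507) and a rho of 0.430 (permutation p = 0.0187). Their r was -0.02 within HI and 0.571 within MOD calves, a difference that was not tested.

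Neighbouring loci did not hold the most correlated members. bta-miR-30d and bta-miR-30b-5p had an r of -0.08 (permutation p = 0.684) and a rho of -0.04 (permutation p = 0.816). For bta-miR-30a-5p and bta-miR-30f r was 0.351 (permutation p = 0.0563) and rho 0.298 (permutation p = 0.108). For bta-miR-30e-5p and bta-miR-30c r was 0.515 (permutation p = 0.0034) and rho 0.431 (permutation p = 0.0172). Without HI calves 2 and 7 the last r was 0.381. All 15 pairs of members were tested, members of a library share its scaling, and with total counts in place of TMM the r of the 3 neighbouring pairs were 0.162 to 0.630. The difference between the r of neighbouring and other pairs was not tested.

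**Figure D5:**
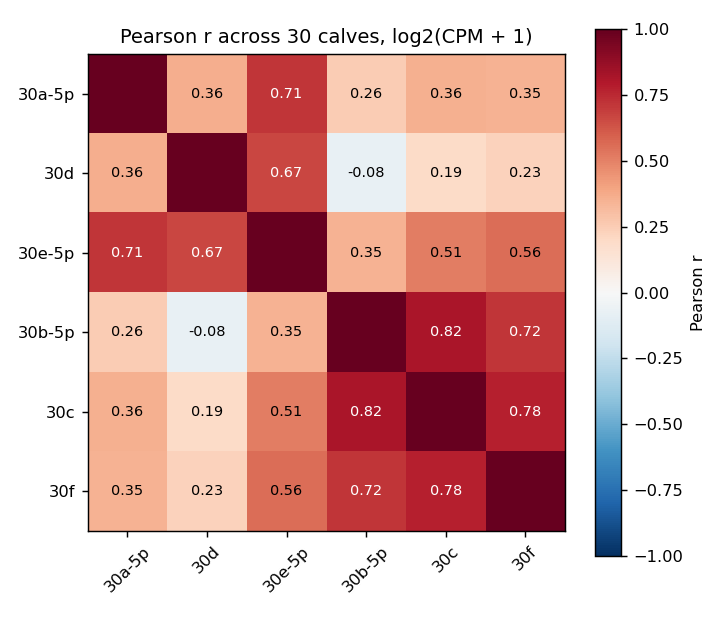
Pearson r between members over 30 calves on the log2(CPM + 1) scale, as a matrix with the members on both axes and colour from blue (negative) to red (positive). The block of miR-30b-5p, miR-30c and miR-30f holds r from 0.717 to 0.817, and the cell of miR-30d and miR-30b-5p is the only one below 0.

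A passenger strand was listed for a single hairpin. bta-miR-30b-3p, the opposite arm to bta-miR-30b-5p, was present at 1.13 to 4.00 CPM, above the value of 3 reads in every calf. It was 2.24 ± 0.436 CPM in HI (SD, n = 15) and 2.33 ± 0.695 CPM in MOD calves (SD, n = 15), with a log2 fold change of -0.02 ± 0.09 (SE) and FDR = 0.962 in limma. The ratio of the 5p arm, the strand known to be loaded onto Argonaute, to the 3p arm was 582 in HI and 558 in MOD calves by geometric mean of CPM + 1. It ran from 414 to 785 in HI and from 391 to 931 in MOD calves, and the log2 difference of 0.06 had an interval of -0.15 to 0.27 (permutation p = 0.548). The size of this ratio depends on the pseudocount, which is large beside the level of the 3p arm. With a pseudocount of 0.1 it was 811 in HI and 777 in MOD calves, from 554 to 1236 and from 495 to 1613, and the log2 difference was again 0.06 (permutation p = 0.658).

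Lists of other broadly expressed families, made by row name, gave mixed counts in the same fit. There 15 of 419 miRNAs passed FDR < 0.1 (3.58%), 7 of them lower in HI calves. The lists include the opposite arms bta-let-7a-3p and bta-miR-29d-5p, whereas bta-miR-30b-3p is not among the 6 members. In the let-7 family, known for promoting differentiation, 0 of 10 tested miRNAs passed FDR < 0.1, with a median log2 fold change of -0.01. In the miR-26 family 2 of 2 tested members were lower in HI calves, with a median of -0.21, and in the miR-29 family, which targets collagen mRNAs, 1 of 6 was lower, with a median of -0.09. The median over the 6 miR-30 members was -0.06, against 0.02 over all tested miRNAs. Whether the families differed from each other was not tested.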

How the data were processed

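The authors trimmed reads with Cutadapt, filtered them by length and against other classes of short RNA, and assigned them to the bovine miRNAs of miRBase with miRDeep2 on ARS-UCD1.2. Deposited was a normalized signal per miRNA, CPM scaled by TMM factors. Whole reads were recovered from the steps between low values: at least 94.7% of values under 60 reads in a library were whole to within 0.02 reads. The members' reads were whole in 30 of 30 libraries. A read placed on a near-identical member by a mismatch cannot be told apart, and no miRNA sequences were used here.

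limma 3.58.1 (R 4.3.3) was fitted to log2(CPM + 1), which understates changes of low miRNAs, after edgeR 4.0.16's filterByExpr by diet, with the study's thresholds. Alternatives included edgeR, DESeq2 1.42.0, other scalings, a pseudocount of 0.1, covariates, label number blocks and leaving out each calf. Permutation tests used 100000 resamples. The members and lists were chosen with earlier results of these data known, and p-values adjusted over the members' pairs alone are therefore not given. The comparison of every pair of miRNAs was added after seeing the data. Named miRNAs were the members, other miR-30 rows, the 3 most similar to the family sum, the most similar to each member, and marker or comparison lists. No library was a copy of another (lowest chi-square per degree of freedom 75.1 over 435 pairs).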

Additional observations from a re-analysis of the deposited data

How the results depend on the processing

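Under upper quartile scaling 3 members passed FDR < 0.1 (log2 fold change -0.228 for bta-miR-30a-5p, -0.250 for bta-miR-30d and -0.238 for bta-miR-30e-5p) and the signs of bta-miR-30b-5p (-0.0592), bta-miR-30c (-0.0850) and bta-miR-30f (-0.0702) reversed, as did that of bta-miR-30c with miR-486 as a covariate (-0.00247). The sign of bta-miR-30b-3p reversed with total counts (0.0230) and with blocks of label number range (0.00155). Leaving out each calf gave 0 to 2 members past FDR < 0.1 (2 without HI calf 7), 9 of 15 ratios with permutation p < 0.05 each time (in limma over all pairs 6 of 15 without HI calf 7, against 8 with all calves), and log2 fold changes of -0.162 to -0.110 (bta-miR-30a-5p), 0.0213 to 0.0656 (bta-miR-30b-5p), -0.0109 to 0.0355 (bta-miR-30c), -0.168 to -0.129 (bta-miR-30d), -0.165 to -0.118 (bta-miR-30e-5p), -0.00051 to 0.0492 (bta-miR-30f) and -0.0664 to 0.0217 (bta-miR-30b-3p). bta-miR-30c reversed without HI calf 7 or 12, and bta-miR-30f without HI calf 12. Between the label number sets 1 member passed FDR < 0.1, and 0 with total counts. The count of 9 ratios with p < 0.05 was 0 in the calves with high label numbers alone, which are few. No share over all pairs was computed for these calves. In limma over all pairs the count was 3 with blocks of label number range and 4 with miR-486 as a covariate. Of all 87571 pairs, 10125 had an unadjusted limma p < 0.05 with all calves and 10432 without HI calf 7. With blocks of label number range 7962 did, and with miR-486 as a covariate 8252. In the calves with high label numbers the log2 differences of the ratios bta-miR-30a-5p to bta-miR-30d (-0.136), bta-miR-30a-5p to bta-miR-30e-5p (-0.0496), bta-miR-30d to bta-miR-30e-5p (0.0864), bta-miR-30b-5p to bta-miR-30c (-0.00149), bta-miR-30c to bta-miR-30f (0.0140) and bta-miR-30b-5p to bta-miR-30b-3p (-0.305) reversed. Leaving out each calf, bta-miR-30a-5p to bta-miR-30d ran from -0.00534 to 0.0485, bta-miR-30a-5p to bta-miR-30e-5p from -0.00560 to 0.0277, bta-miR-30d to bta-miR-30e-5p from -0.0288 to 0.00759 and bta-miR-30b-5p to bta-miR-30f from -0.00244 to 0.0339. Where no value above bears on it, the cause was not tested. The paper states that blocking by farm, sire, age and bodyweight preceded the assignment to diets. No paired or blocked analysis of this kind was possible, because the labels do not give the blocks and the replicate numbers run separately within each diet.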

Other observations

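The miRNAs whose levels across the 30 calves were most like the summed family were, by Spearman rho, bta-miR-33a (0.621), which lies in an intron of a sterol regulatory gene and is known for its part in cholesterol export, bta-miR-502b (0.572) and bta-miR-181b (0.552). Of these, bta-miR-33a was lower in HI calves (log2 fold change -0.23, limma FDR = 0.0396), whereas bta-miR-502b (-0.18, FDR = 0.615) and bta-miR-181b (-0.00481, FDR = 0.984) did not pass the threshold. The sum follows the abundant members, with a rho of 0.910 for bta-miR-30e-5p, 0.899 for bta-miR-30a-5p and 0.691 for bta-miR-30d, and 0.269 for bta-miR-30b-5p.

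Outside the family, each member had another nearest miRNA. bta-miR-30d was closest to bta-miR-181a (rho 0.759), and this rho was higher than that with any family member. For the other 5 members a family member came first. The nearest outside it were bta-miR-26a for bta-miR-30a-5p (rho 0.673), bta-miR-502b for bta-miR-30e-5p (0.683), bta-miR-190a for bta-miR-30b-5p (0.681), bta-miR-17-5p, of a cluster known for promoting proliferation, for bta-miR-30c (0.565) and bta-miR-199b, known from fibroblasts, for bta-miR-30f (0.564). These are the highest among correlations with 419 miRNAs over the same calves and are given as a description.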
